A study of Mus musculus with 15 samples.

Results

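Cytokine receptors carry the growth and differentiation signals that myeloid cells live by. Here the RNA of 10 receptor genes, Csf2ra, Csf2rb, Csf2rb2, Csf3r, Il3ra, Il6ra, Il6st, Il1rl1, Ifngr1 and Il10ra, was followed in MLL-ENL transformed mouse fetal liver cells with and without C/EBPα and C/EBPβ. The genes were chosen by symbol, and all 10 were among the 53379 genes of the RNA-seq table. RNA was sequenced from 5 groups of 3 libraries, from lines of 2 mice called C1 and C2. All cells were transformed by MLL-ENL and grown with IL-3 at 10 ng/ml.

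WT cells carried floxed, undeleted Cebpa fl/fl Cebpb fl/fl alleles and no listed exogenous gene. The dKO cells had lost Cebpa and Cebpb and carried a GFP vector, so vector and deletion cannot be told apart between WT and dKO cells. LAP* cells, analysed here in C1 alone, were dKO cells with GFP and the rat C/EBPβ isoform LAP*. Each dKO line grew from 1 surviving clone of 1 mouse, so clone and mouse cannot be told apart. The libraries of a group came from the same line at different times, and p-values measure only the spread between such cultures.

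The libraries held 9212237 to 13613500 reads on genes. Cebpa and Cebpb were at 0 in all dKO libraries of both clones, against 903 to 2267 normalized reads of Cebpa and 1353 to 1634 of Cebpb in WT libraries. Cebpe measured 371 to 472 normalized reads in C1 WT, 2022 to 2272 in C1 dKO and 1653 to 2106 in LAP* libraries. In C2, Cebpe measured 497 to 517 in WT and 2120 to 2222 in dKO libraries. Loss of Cebpa and Cebpb and the higher Cebpe cannot be told apart between WT and dKO cells. In the LAP* libraries Cebpb had 2538 to 4216 normalized reads, a row that can hold reads of the rat cDNA. All 10 myeloid progenitor markers examined were above the floor of 3 reads in every group, while the 8 lymphoid markers summed to at most 13.6 normalized reads in any library. In bulk RNA, fewer cells of a type and less RNA per cell cannot be told apart.

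Most of these receptors work as pairs. A ligand-specific alpha chain joins a shared chain that carries the signal, Csf2rb for GM-CSF, IL-3 and IL-5, and Il6st (gp130) for IL-6 and its relatives. Janus kinases bound to the chains then phosphorylate STAT proteins. Csf3r, the G-CSF receptor of the neutrophil lineage, pairs with itself.

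Per kilobase of exon, Ifngr1 stood highest in all groups, with 2233 ± 167 normalized reads per kb (SD, n = 3) in C1 WT cells. Csf2ra followed with 1081 ± 174 and Csf2rb with 796 ± 73.0, a pair whose levels differed by little more than their spread. Csf3r had 275 ± 15.9 and Csf2rb2 243 ± 35.3, which overlapped within 1 SD. Il3ra (110 ± 26.4), Il6ra (85.3 ± 14.9) and Il10ra (84.2 ± 18.5) did not separate beyond their spread. Il6st, at 25.4 ± 2.07, lay lower, and Il1rl1 was at 0.

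**Figure D1:**
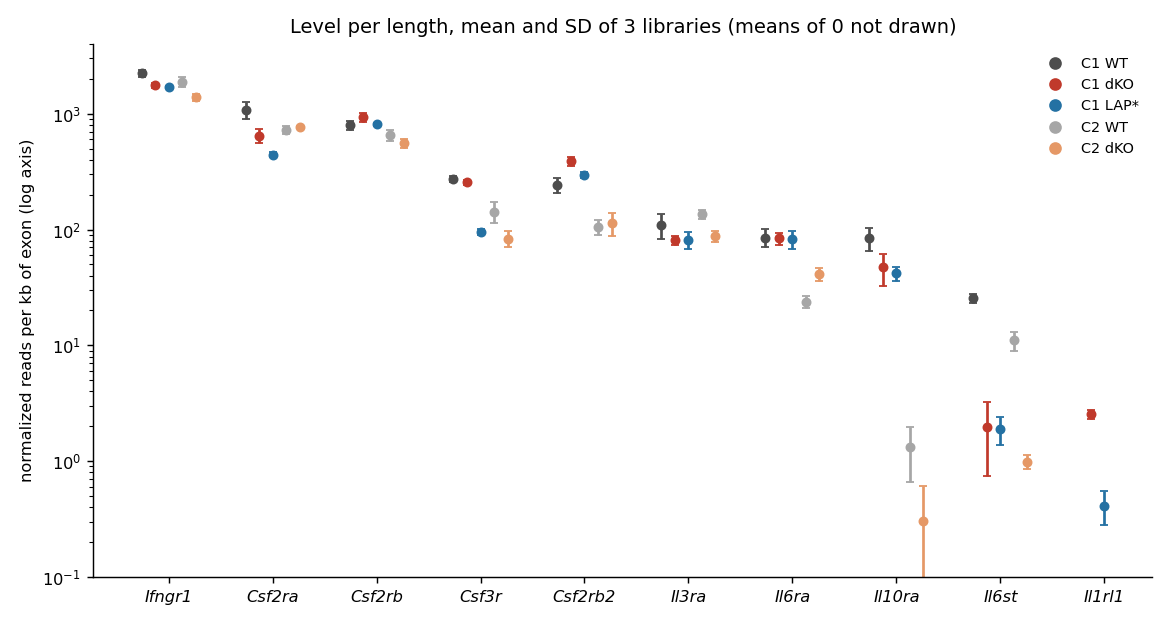
Normalized reads per kb of exon (log axis) of the 10 receptor genes in 5 groups, as means with SD of 3 libraries, where a bar that reaches the bottom has an SD above its mean. Ifngr1 is highest in each group, and Il6st drops from 25.4 to 2.0 per kb in C1 and from 11.0 to 0.991 in C2.

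Between dKO and WT cells of C1, 3 receptor genes were called lower and 2 higher, and between those of C2, 5 lower and 1 higher. A gene was called at an adjusted p under 0.05 in limma on log2(normalized reads + 1). Of all 12673 genes tested, 19.9% were lower and 17.1% higher in C1, and 20.1% lower and 17.4% higher in C2. The receptors' median log2 change, with Il1rl1 included, was -0.22 in C1 and -0.34 in C2, against -0.01 and -0.03 over all genes tested. Il1rl1, 1 of the 2 called higher in C1, passed the filter on low values only through the C1 dKO libraries, so it had to differ, and its values are given below as a description. Il10ra, 1 of the 5 called lower in C2, held 2, 6 and 6 reads in C2 WT and 1, 0 and 2 in C2 dKO libraries. It passed the filter only through C1 libraries. Its C2 call was lost with a pseudocount of 5 (adjusted p 0.050), by edgeR (0.090) and by DESeq2 (0.062). Il6st and Ifngr1 were called lower in each clone.

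Il6st encodes gp130, the signalling chain shared by receptors of the IL-6 family (chr13:112464070-112510086, plus strand, GRCm38). In C1, Il6st measured 282, 305 and 259 normalized reads in WT libraries and 12.5, 15.7 and 37.95 in dKO libraries. In C2 the WT libraries held 147, 117 and 102 and the dKO libraries 12.55, 9.72 and 10.7. The groups were far apart in both clones. The mean was 12.8-fold lower in C1 (log2 change -3.78, SE 0.32, adjusted p 1.7e-07, limma) and 11.1-fold lower in C2 (-3.35, SE 0.32, adjusted p 8.0e-07). Without C1 dKO replicate 3, the highest of its group, the C1 mean was 20.0-fold lower. The dKO effect did not differ detectably between the clones (difference 0.43, 95% interval -0.53 to 1.38, adjusted p 0.53). In LAP* cells Il6st measured 15.2, 21.2 and 26.45, inside the range of the C1 dKO libraries, and the change against dKO was 0.06 (95% interval -0.62 to 0.73, adjusted p 0.95). The ratio of LAP* to dKO means was 0.951, and 1.49 without that dKO library.

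Ifngr1, the ligand-binding chain of the interferon gamma receptor (chr10:19591949-19610229, plus strand), fell by less. In C1, Ifngr1 measured 5949, 6881 and 6241 normalized reads in WT and 4808, 5319 and 4948 in dKO libraries. The C2 libraries held 5982, 4908 and 5221 in WT and 4248, 3829 and 3721 in dKO libraries. WT and dKO libraries did not overlap in either clone. The mean was 1.27-fold lower in C1 (log2 change -0.34, SE 0.08, adjusted p 0.0044, limma) and 1.37-fold lower in C2 (-0.45, SE 0.08, adjusted p 0.00051). Quantile normalization ended the call in C1 (adjusted p 0.058). The LAP* libraries, at 4916, 4938 and 4708, overlapped the dKO libraries (log2 change -0.05, 95% interval -0.22 to 0.13).

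The stretch before the start of these genes is shown because they are the pair called lower in both clones. The 250 bases before the start (RefSeq, GRCm38.p6, plus strand) lie at chr13:112463820-112464069 for Il6st and at chr10:19591699-19591948 for Ifngr1. Matches to TTNNGNAA, a C/EBP-type motif, or to GAGGAA, a PU.1-type motif, on either strand were to be printed in capitals, and neither stretch held any.
Il6st: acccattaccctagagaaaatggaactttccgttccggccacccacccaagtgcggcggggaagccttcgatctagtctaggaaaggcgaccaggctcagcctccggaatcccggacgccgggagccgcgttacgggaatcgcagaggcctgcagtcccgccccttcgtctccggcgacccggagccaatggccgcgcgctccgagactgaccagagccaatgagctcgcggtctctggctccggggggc
Ifngr1: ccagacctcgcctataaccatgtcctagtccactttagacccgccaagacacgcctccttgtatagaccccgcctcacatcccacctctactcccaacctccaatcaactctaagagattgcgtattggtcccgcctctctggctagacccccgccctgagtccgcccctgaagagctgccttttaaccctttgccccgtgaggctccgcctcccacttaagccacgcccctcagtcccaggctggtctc
Over 300 bases, with 50 bases after the start included, neither gene matched either motif. Of all 32851 promoters in the table, 40.7% held TTNNGNAA and 28.3% held GAGGAA, and of the 9 promoters of 8 receptor genes, 6 and 5 did. The motifs can overlap each other, as they do in the promoters of Il6ra and Csf2rb2. Csf2rb and Il10ra were not matched in the table. A missing match says only that these letters are not in this window.

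**Figure D2:**
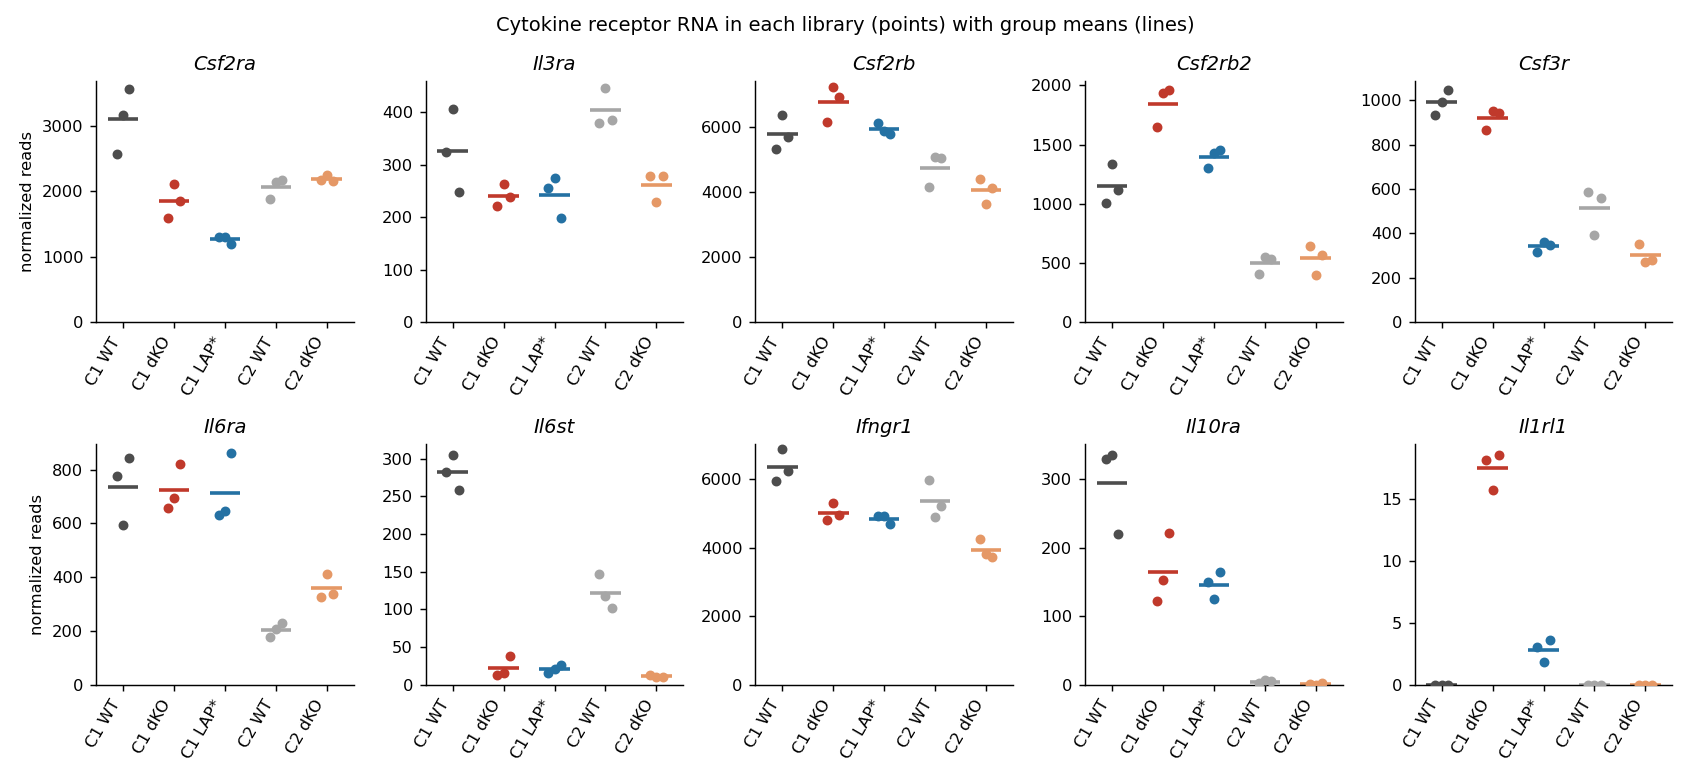
Normalized reads of each receptor gene in every library (points, linear axes from 0) with group means (lines) for WT, dKO and LAP* cells of C1 and WT and dKO cells of C2. Il6st is low in all dKO and LAP* libraries, Csf3r is lowest in LAP* and C2 dKO libraries, and Il1rl1 is above 4 normalized reads only in C1 dKO libraries.

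Csf2ra encodes the GM-CSF-specific alpha chain (chr19:61223957-61228429, minus strand). In C1 it measured 2576, 3161 and 3569 normalized reads in WT and 1586, 2110.4 and 1859 in dKO libraries. In C2 it measured 1879, 2149 and 2169 in WT and 2169.7, 2257 and 2162 in dKO libraries. The groups were separate in C1 and overlapped in C2. Csf2ra was 1.68-fold lower in C1 dKO cells (log2 change -0.74, SE 0.11, adjusted p 8.1e-05, limma), while the C2 change was 0.09 (adjusted p 0.56). These effects differed between clones by 0.83 (SE 0.16, adjusted p 0.00097). The LAP* libraries were lower again, at 1299, 1308 and 1197, below every C1 dKO library (log2 change -0.54, SE 0.11, adjusted p 0.012), a call lost without C1 dKO replicate 2 (adjusted p 0.074) or LAP* replicate 3 (0.065).

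Il3ra encodes the IL-3-specific alpha chain, and IL-3 was in the medium of all cultures (chr14:14346275-14356011, plus strand). In C1 it measured 324, 405 and 249 normalized reads in WT and 221, 263 and 237 in dKO libraries, which overlapped (log2 change -0.41, SE 0.16, adjusted p 0.060, limma). The C2 libraries held 379, 447 and 385 in WT and 278, 228 and 279 in dKO libraries, which did not. Il3ra was 1.54-fold lower in C2 dKO cells (-0.62, SE 0.16, adjusted p 0.0068). The C1 change was called without C1 WT replicate 3 (-0.59, adjusted p 0.0070), with the replicate block (0.049) and by DESeq2 (0.041), and the clones' effects did not differ detectably (adjusted p 0.54). LAP* libraries held 256, 275 and 198, across the range of the dKO libraries. The antisense gene Gm48860 overlaps Il3ra, and Gm42809 overlaps Il6ra.

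Csf2rb and Csf2rb2 encode the shared beta chain and its mouse-specific, IL-3-dedicated copy, which lie side by side on chromosome 15 (78325752 to 78353847, plus strand, and 78282507 to 78305721, minus strand). Of the 76-base windows of their transcripts, 7.0% of Csf2rb and 10.4% of Csf2rb2 also occur in the other gene, so their counts are uncertain. Csf2rb measured 5331, 6374 and 5682 normalized reads in C1 WT and 6163, 7233 and 6918 in C1 dKO libraries. In C2 it measured 4161, 5067 and 5034 in WT and 4398, 3619 and 4126 in dKO libraries. The groups overlapped in both clones, with changes of 0.23 (adjusted p 0.082) and -0.23 (adjusted p 0.075), whose difference of -0.46 passed the test (SE 0.14, adjusted p 0.020, limma). The C1 change was called under quantile normalization (0.33, adjusted p 0.016) and without C1 WT replicate 2 (0.041) or C1 dKO replicate 1 (0.045), and the C2 change without C2 WT replicate 1 (0.020) or C2 dKO replicate 1 (0.046). The call of the difference was lost on leaving out any of 5 libraries, C1 WT replicate 1, C1 dKO replicate 2, C2 WT replicates 2 and 3 and C2 dKO replicate 2 (adjusted p 0.053 to 0.058).

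Csf2rb2 measured 1006, 1335 and 1118 normalized reads in C1 WT and 1647, 1932 and 1959 in C1 dKO libraries, with no overlap. It was 1.60-fold higher in C1 dKO cells (log2 change 0.68, SE 0.16, adjusted p 0.0027, limma). In C2 the WT libraries held 410.3, 546 and 536 and the dKO libraries 642, 399.5 and 571, which overlapped (0.10, adjusted p 0.67). LAP* libraries held 1302, 1425 and 1453, below the C1 dKO libraries (-0.40, adjusted p 0.17), a change called with only the groups compared (adjusted p 0.027). The clones' effects on Csf2rb2 differed by -0.59 (adjusted p 0.057), which was called under quantile normalization (0.026), by DESeq2 (0.044) and without C1 WT replicate 2 (0.031), C1 dKO replicate 1 (0.046), C2 WT replicate 1 (0.024) or C2 dKO replicate 1 (0.020). With both genes summed, the C1 change was 0.31 (adjusted p 0.026), the C2 change -0.20 (adjusted p 0.15) and their difference -0.51 (adjusted p 0.015).

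Csf3r encodes the G-CSF receptor (chr4:126024550-126044440, plus strand). Csf3r measured 934, 991 and 1049 normalized reads in C1 WT, 869, 953 and 942 in C1 dKO and 318, 359.5 and 349 in LAP* libraries. WT and dKO libraries overlapped (log2 change -0.11, adjusted p 0.58), and all LAP* libraries lay below them. Csf3r was 2.69-fold lower in LAP* than in dKO cells (-1.43, SE 0.13, adjusted p 1.5e-05, limma). The C2 libraries held 587, 394 and 559.8 in WT and 354, 269 and 282 in dKO libraries, 1.70-fold lower without overlap (-0.75, SE 0.13, adjusted p 0.00033). The dKO effects differed between clones by -0.65 (SE 0.19, adjusted p 0.016). Of the windows of its transcripts, 2.81% also occur in other genes.

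All 8 neutrophil markers, which Csf3r accompanies in the lineage, were above the floor in every group. Their summed level ran from 21593 to 28475 normalized reads in C1 WT, 88491 to 110986 in C1 dKO and 35535 to 40112 in LAP* libraries. In C2 the sum ran from 50700 to 91115 in WT and from 57849 to 90897 in dKO libraries. Members of the list moved apart in C2, with 45.8 to 90.7 in WT and 15.6 to 24.1 in dKO libraries for Ly6g, and 6.97 to 31.2 and 56.9 to 71.0 for Mmp8. Their part in the Csf3r values was not tested.

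Il6ra, the IL-6-binding alpha chain that hands its signal to gp130 (chr3:89864059-89913196, minus strand), went the other way from Il6st in C2. In C1 it measured 775, 593 and 843 normalized reads in WT, 657, 695 and 821 in dKO and 632, 645 and 862 in LAP* libraries. All 3 groups overlapped, with a dKO change of -0.02 (adjusted p 0.95). In C2 it measured 179, 205.5 and 229 in WT and 327, 410.2 and 337 in dKO libraries, 1.75-fold higher without overlap (log2 change 0.80, SE 0.15, adjusted p 0.00061, limma). The effects differed between clones by 0.82 (SE 0.21, adjusted p 0.0090).

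Il10ra, the ligand-binding chain of the IL-10 receptor (chr9:45253837-45269149, minus strand), stood far higher in C1 than in C2 cells. In C1 it measured 329, 335 and 220.1 normalized reads in WT and 122, 152 and 221 in dKO libraries, which touched. In C2 it measured 2.0, 6.29 and 5.50 in WT and 1.05, 0 and 2.15 in dKO libraries, or 14 and 3 reads in all. The C1 change was -0.85 (SE 0.40, adjusted p 0.11, limma), and it was called with a pseudocount of 5, with only the groups compared, by edgeR and by DESeq2 (adjusted p 0.0035 to 0.026). The C2 change was -1.49 (adjusted p 0.0076), a ratio of 0.232 with a counting interval of 0.0413 to 0.803 (0.114 without C2 dKO replicate 3), and it was lost with a pseudocount of 5 (adjusted p 0.050), edgeR (0.090) and DESeq2 (0.062). LAP* libraries, at 149, 124 and 164, overlapped the dKO libraries. The summed level of 8 monocyte and macrophage markers ran from 8137 to 12418 in C1 WT, 3631 to 4885 in C1 dKO, 3426 to 4784 in LAP*, 3347 to 5291 in C2 WT and 1707 to 2760 in C2 dKO libraries. The members of this list did not move together in C2, where Ccr2 measured 2392 to 3719.5 normalized reads in WT and 281 to 494 in dKO libraries. Adgre1 measured 200.2 to 418 in C2 WT and 988 to 1676 in C2 dKO libraries, and Csf1r 35.9 to 65.1 and 46.7 to 68.7. In C1, Csf1r measured 2893 to 3646.5 in WT, 696.5 to 1120 in dKO and 661 to 925 in LAP* libraries. It was called lower in dKO against WT in C1. The part of monocytes and macrophages in the Il10ra values was not tested.

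Il1rl1 encodes ST2, the IL-33 receptor of mast cells, basophils and eosinophils among others (chr1:40429570-40465415, plus strand). It was at 0 in all WT libraries and in C2 dKO libraries, at 18.1, 15.7 and 18.5 normalized reads in C1 dKO and at 3.05, 1.84 and 3.65 in LAP* libraries. Against the floor of 3 reads per library it was at least 5.36-fold higher in C1 dKO than in WT cells. The C1 dKO libraries held 52 reads in all and the LAP* libraries 9, at about the floor, so no fold is given between them. No test is drawn on for Il1rl1, since the filter kept it for its level in the C1 dKO libraries.

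The summed markers of cells that express ST2 were also highest in the C1 dKO libraries. The summed level of 10 mast cell and basophil markers ran from 104 to 144 normalized reads in C1 WT, 2894 to 3305 in C1 dKO, 1094 to 1310 in LAP*, 180 to 192 in C2 WT and 976 to 1379 in C2 dKO libraries. Of these markers 5 were above the floor of 3 reads in C1 dKO libraries. Cpa3 (1297 to 1546) and Hdc (1184 to 1318) held most of the C1 dKO sum. Fcer1a, at 0 in every other group, had 0, 1.05 and 0.88 normalized reads in C1 dKO libraries. Cma1 and Prss34 had at most 3 reads in any library, and Tpsb2 and Mcpt4 were at 0 in all 5 groups. Gata2 went against the sum, with 439 to 609 in C2 dKO and 252 to 269.6 in C1 dKO libraries, as did Ms4a2 within C2, with 47.6 to 69.7 in WT and 5.23 to 12.6 in dKO libraries. The 8 eosinophil markers summed to 136 to 238 in C1 WT, 8902 to 17000 in C1 dKO, 1115 to 2194 in LAP*, 22.0 to 32.1 in C2 WT and 276 to 384 in C2 dKO libraries. Their part in the Il1rl1 values was not tested.

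**Figure D3:**
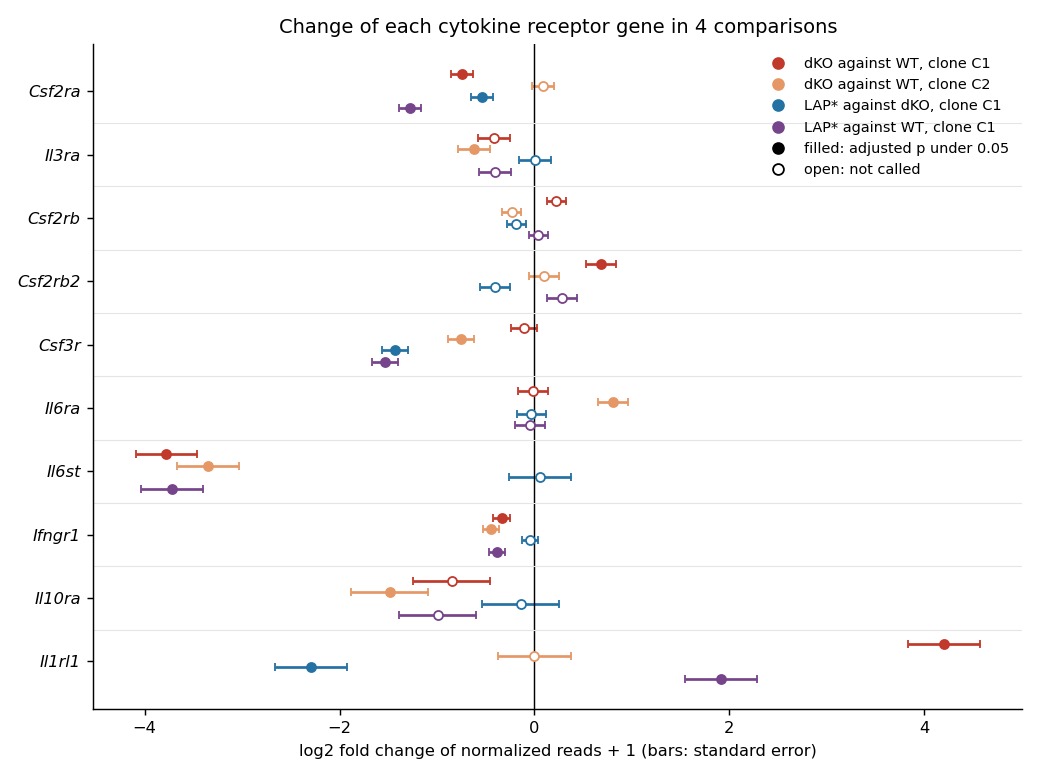
Log2 fold change with standard error of each receptor gene in 4 comparisons, filled where the adjusted p was under 0.05. Il6st sits at -3.78, -3.35 and -3.72 against WT and at 0.06 between LAP* and dKO cells, and Csf3r at -1.43 between LAP* and dKO cells.

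Between LAP* and dKO cells of C1, 3 of the 10 receptor RNAs were lower with LAP*, those of Csf2ra, Csf3r and, kept by the filter for its C1 dKO level, Il1rl1, and none was higher. The Il1rl1 call, which is not drawn on, was lost with a pseudocount of 0.1 (adjusted p 0.064) and by DESeq2 (0.054). Over all genes tested 3.03% were lower and 1.43% higher, or 384 and 181 genes. Leaving out single libraries moved these counts to 187 lower and 79 higher (C1 dKO replicate 2 left out), 221 and 73 (LAP* replicate 2 left out), and at most to 470 and 258 without C1 WT replicate 3. Counts were also over 1.5 times smaller without C1 dKO replicate 1 (222 and 88), without LAP* replicate 3 (196 and 78) and, among lower genes, without C1 dKO replicate 3 (212). The receptors' median, with Il1rl1 included, was -0.17 against 0 over all genes. Against WT cells, which shared their libraries with the C1 dKO comparison, LAP* cells were lower in Csf2ra (-1.28), Csf3r (-1.53), Ifngr1 (-0.39) and Il6st (-3.72), with adjusted p from 2.1e-07 to 0.0018 in limma. Il10ra, at -0.99 (adjusted p 0.067), was called lower with a pseudocount of 5 (0.0060), with only the groups compared (0.0045), by edgeR (0.0028) and by DESeq2 (0.00029). Il3ra, at -0.41 (adjusted p 0.069), was called lower without C1 WT replicate 3 (0.0082). Il1rl1 was called higher on 9 reads against 0, too few for a fold above the floor. Over all genes 18.3% were lower and 14.2% higher, and 1910 were lower and 2521 higher under quantile normalization against 2322 and 1796. For C1 dKO against WT cells that normalization gave 2052 lower and 2681 higher against 2516 and 2170, and for C2 it gave 2289 and 2416 against 2549 and 2211.

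Across all 10 receptors, 5 dKO effects differed between the clones, those of Csf2ra, Csf2rb, Csf3r, Il6ra and, by the filter, Il1rl1, beside 29.4% of all genes tested. WT cells of the mice differed as well, with 8 receptors called lower in C2 than in C1, where 21.3% of all genes were lower and 19.7% higher (2378 lower and 2886 higher under quantile normalization). Il3ra, at 0.33 (adjusted p 0.12), was called higher under quantile normalization (0.043) and without C1 WT replicate 2 (0.022). Il10ra, which passed the filter only through C1 libraries, was 64.1-fold lower in C2 WT cells (log2 change -5.80, SE 0.40, adjusted p 1.1e-08, limma). The Il10ra fold rests on 2, 6 and 6 reads in C2 WT libraries. It ran from 49.98 without C2 WT replicate 1 to 78.67 without C2 WT replicate 2. Il6ra was 3.60-fold lower in C2 WT cells (-1.84, SE 0.15, adjusted p 9.5e-08, limma). Csf2rb2 and Il6st were 2.32-fold and 2.31-fold lower, and Csf3r, Csf2ra, Csf2rb and Ifngr1 1.93-fold to 1.18-fold lower. The calls of Csf2rb and Ifngr1 were lost with only the groups compared (adjusted p 0.060 and 0.076), without C1 WT replicate 2 (0.12 and 0.11), and, for Csf2rb, without C2 WT replicate 1 (0.14) and, for Ifngr1, without C2 WT replicates 2 (0.13) or 3 (0.081) and under quantile normalization (0.054).

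Partner chains of these receptors ranged from absent to well measured. Of 9 listed, 5 were tested, with 1 higher and 3 lower in C1 dKO cells (17.1% and 19.9% of all genes tested) and 1 higher and 1 lower in C2 dKO cells (17.4% and 20.1%), the latter near the share over all genes. Il5ra, the IL-5-specific partner of Csf2rb and also 1 of the eosinophil markers above, was at 0 in all WT libraries and at 68.0, 49.3 and 44.1 normalized reads in C1 dKO libraries, at least 16.5-fold higher, and it passed the filter only through these libraries. It was at 0, 0 and 0.91 in LAP* libraries and at 3.14, 2.92 and 4.29 in C2 dKO libraries. Il1rap, the co-receptor of ST2, fell in both clones (log2 changes -0.58 and -0.71, adjusted p 0.0041 and 0.00083, limma). Ifngr2 and Il10rb, the signalling partners of Ifngr1 and Il10ra, fell in C1 (-0.55 and -0.39, adjusted p 0.00057 and 0.016) and had changes of 0.02 and -0.10 in C2. The Il10rb call was lost without C1 WT replicate 3 (adjusted p 0.064) or C1 dKO replicate 2 (0.077).

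Most ligands were low in these cells, and Osm was the exception. Of 14 listed, 4 were tested, and Il33 and Osm were called lower in C1 dKO cells, where 19.9% of all genes tested were lower. Il3 and Ifng were at 0 in every library. Il33, the ST2 ligand, measured 22.8, 37.9 and 31.6 normalized reads in C1 WT and 7.93, 7.34 and 5.30 in C1 dKO libraries, and it passed the filter only with the C1 WT libraries, so no test is drawn on for it. Osm, a gp130 ligand, had changes of -0.75 (adjusted p 0.042) and -0.59 (adjusted p 0.10), with 176 to 386 normalized reads in C1 WT and 467 to 539 in C2 WT libraries. Its C2 change was called with only the groups compared (adjusted p 0.00078) and with the replicate block (0.037). Its C1 call was lost with no filter (0.057), with only the groups compared (0.081) and in 4 of the 6 fits without a C1 WT or dKO library, without WT replicates 1 or 2 or dKO replicates 1 or 3 (adjusted p 0.070 to 0.21).

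All 4 Janus kinases were tested. Jak2, which serves the GM-CSF, IL-3, G-CSF and interferon gamma receptors, rose 1.88-fold in C1 and 1.67-fold in C2 (log2 changes 0.92 and 0.74, SE 0.10, adjusted p 4.3e-06 and 4.5e-05, limma). Jak1 fell slightly in both (-0.20 and -0.21, adjusted p 0.017 and 0.012), a call lost in C1 under quantile normalization (adjusted p 0.32) and with only the groups compared (0.071). Jak3 and Tyk2 fell in C1 (-0.61 and -0.60, adjusted p 0.0077 and 4.0e-05), with changes of 0.03 and -0.20 in C2 (adjusted p 0.90 and 0.082). The Tyk2 change in C2 was called lower without C2 WT replicate 1 (-0.26, adjusted p 0.045). Without C1 WT replicate 1 or C1 dKO replicate 1 the C1 call of Jak1 was lost (adjusted p 0.084 and 0.061), as was its C2 call without C2 WT replicate 2 (0.060).

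Of 29 other cytokine receptors, 20 were tested, with 5 higher and 8 lower in C1 (17.1% and 19.9% of all genes tested) and 6 higher and 5 lower in C2 dKO cells (17.4% and 20.1%). The 5 higher in C1 and 5 lower in C2 are near the share over all genes. Flt3, the FLT3 ligand receptor of early progenitors, was at 0 in C1 WT libraries and at 34.0, 72.4 and 80.3 normalized reads in C1 dKO libraries, at least 19.1-fold higher. In C2 it went from 0, 0 and 0.92 to 352, 261 and 299. Kit, the stem cell factor receptor, rose 2.27-fold in C1 and 4.49-fold in C2 (log2 changes 1.20 and 2.16, SE 0.12, adjusted p 8.0e-07 and 1.1e-09, limma). Il18rap, the accessory chain of the IL-18 receptor, rose 1.50-fold and 3.22-fold. Il7r, the IL-7 receptor alpha chain, measured 56.2, 55.0 and 37.7 in C1 WT and 0, 1.05 and 1.77 in C1 dKO libraries, passed the filter only through the former, and was at 0 to 2.75 in C2 libraries.

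**Figure D4:**
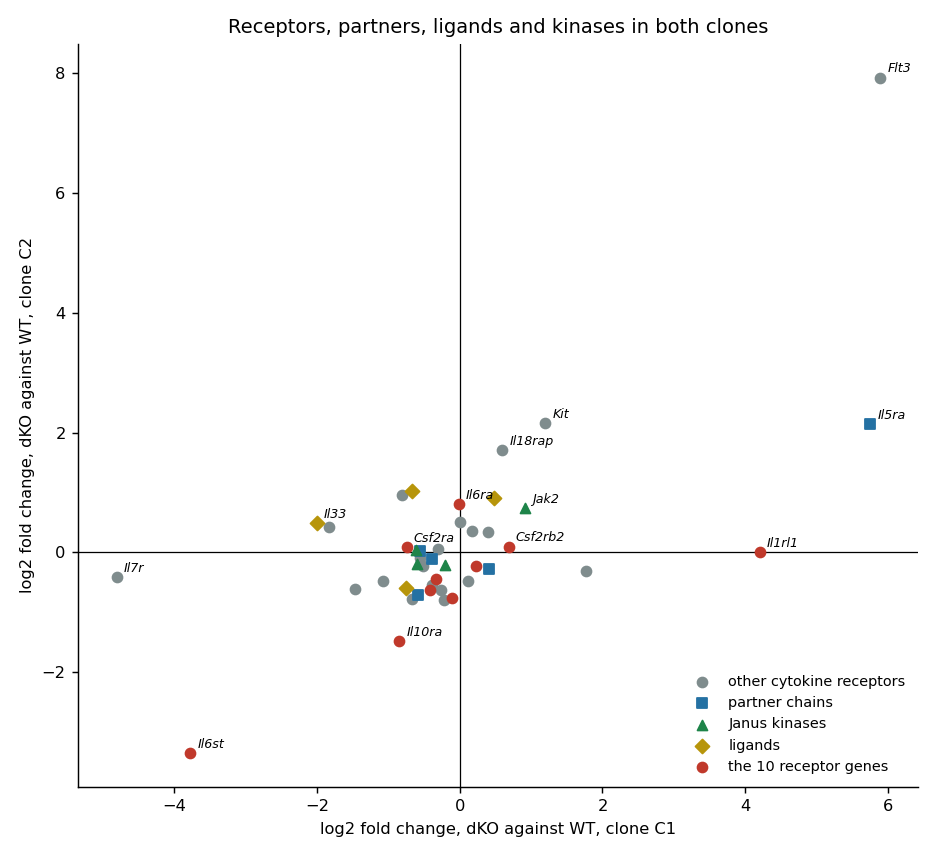
Log2 fold change of dKO against WT cells in C1 (x axis) and C2 (y axis) for the 10 receptor genes and the tested partner chains, ligands, Janus kinases and other cytokine receptors. Il6st lies at lower left (-3.78, -3.35), Flt3, Kit and Jak2 at upper right, and Il1rl1 on the horizontal axis at 4.20.

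As a description over the 15 libraries, which share clones and genotypes, each receptor was set beside the tested gene whose log2 level followed it most closely (Pearson r). These were Anxa1 for Csf2rb2 (0.98), 4921529L05Rik for Il6st (0.98), Cfp for Il10ra (0.99), Muc6 for Il1rl1 (0.98) and Vav1 for Il6ra (0.97). For Ifngr1, Csf2rb, Il3ra, Csf3r and Csf2ra they were Cyp39a1 (0.96), Cdhr4 (0.96), Htr2a (0.95), Pecam1 (0.94) and Rab29 (0.93).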

How the data were processed

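RNA-seq libraries of 5 groups were analysed, 3 per group. The authors aligned reads to mm10 with STAR 2.5.3a, counted them per gene with HTSeq 0.10.0 and normalized the counts with DESeq2 1.26.0, and the gene annotation and strand setting were not given in the sources used here. The deposited signal is therefore a read count divided by a size factor per library. Whole reads (within 0.1) were recovered for 100% of the low values, the only ones on which this was checked, with size factors from 0.747 to 1.13. Rows of other reads (5) held 22.4% to 26.2% of reads, and 3 columns, named for LAP* cells of C2, matched no sample and were not used.

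Values were taken as log2 after adding 1, and limma 3.58.1 (R 4.3.3) modelled them with a mean per group over 15 libraries. Genes entered if 3 or more libraries reached 10 normalized reads (12673 of 24520), and p-values were adjusted over all of them by Benjamini-Hochberg. A fold change on this scale understates the change of low genes, and printed folds are ratios of mean normalized reads. Folds against groups at 0 used a floor of 3 reads per library, and floors and the counting interval of Il10ra cover counting error only, while intervals of log2 changes are limma's and cover the spread between libraries. Alternatives were a replicate block, a fit of the compared groups alone, quantile normalization, pseudocounts of 0.1 and 5, no filter, edgeR 4.0.16, DESeq2 1.42.0 and leaving out each library. The tests were tested on simulated data. Gene positions came from GENCODE on GRCm38 and promoters from RefSeq. Windows of 76 bases were compared between GENCODE transcripts.

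The receptors and lists were chosen with earlier results of these data known. Named genes were all 10 receptors and, per list, at most the 4 genes with the largest mean absolute log2 change over both clones among those called in either. Tables and plots used Python 3.11.15, pandas 2.3.3, numpy 2.4.6 and matplotlib 3.10.9.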

Additional observations from a re-analysis of the deposited data

Results flagged for a closer look

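The dKO effect was called different between the clones for 5 of the receptors by the test of the difference itself (C2 minus C1, log2 scale, limma adjusted p). The differences were 0.83 for Csf2ra (adjusted p 0.00097), -0.46 for Csf2rb (0.020), -0.65 for Csf3r (0.016) and 0.82 for Il6ra (0.0090). For Il1rl1 the value was -4.20, from a gene that entered the test only through the C1 dKO libraries, so no test is drawn on for it. The Il1rl1 difference was not called by edgeR (-7.13). Csf2ra fell in C1 dKO cells alone, and Csf3r fell and Il6ra rose in C2 dKO cells alone.

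Among the partner chains and ligands the same test passed for Ifngr2 (0.57, adjusted p 0.0079). Il5ra, with a difference of -3.61, entered the test only through the C1 dKO libraries. Il7r and Il33, with 4.39 and 2.49, entered it only with the C1 WT libraries. No test is drawn on for Il5ra, Il7r or Il33. The Il5ra difference was not called by edgeR or by DESeq2 (adjusted p 0.11). The Il7r difference was lost with a pseudocount of 0.1 (adjusted p 0.066) and by edgeR (0.076). Among the kinases the test of the difference passed for Tyk2 (0.41, 0.018) and Jak3 (0.64, 0.046). Among the other receptors it passed for Flt3 (2.04, 0.0060), Kit (0.96, 0.00038) and Il18rap (1.11, 0.00097). Kit and Il18rap rose more in C2 than in C1. The Flt3 difference was not called by edgeR or DESeq2 (adjusted p 0.79 and 0.60) or with a pseudocount of 0.1 (0.39). The Tyk2 difference was lost under quantile normalization (0.080) and without C2 WT replicate 1 (0.051). The Jak3 difference was lost with a pseudocount of 0.1 (0.053), no filter (0.064) and quantile normalization (0.057), and in 9 of the 12 fits that left out a library (adjusted p up to 0.11).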

How the results depend on the processing

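None of the 63 called results on single genes changed direction under an alternative run for it. The number of receptors called under the other alternatives stayed within 1.5 times the reported one. With each library left out in turn it ran from 3 to 6 for the difference between clones and from 1 to 3 for LAP* against dKO cells, both lowest without C1 dKO replicate 2, where Csf2rb and Csf2ra lost these calls and Il1rl1, which needed all 3 C1 dKO libraries to pass the filter, was not tested. The replicate block gave 6, 6, 5, 3, 5 and 8 receptors called against 5, 6, 5, 3, 5 and 8, in the order dKO against WT in C1 and in C2, their difference, LAP* against dKO, LAP* against WT and WT of C2 against WT of C1. The numbers share no stated culture, and same-numbered libraries of 2 groups correlated from -0.32 to 0.30.

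The results that changed sign were all uncalled. Quantile normalization gave 0.063 for Il6ra in C1 dKO cells and 0.043 for Il6ra in LAP* against WT cells. The summed beta chains gave -0.20 in C2, a pseudocount of 5 gave 0.19 for the Il10ra difference, and edgeR and DESeq2 gave -0.10 and -0.10 for Il6st in LAP* against dKO cells. With a library left out, dKO against WT ran from -0.16 to 0.089 for Il6ra in C1, and in C2 from -0.047 to 0.29 for Csf2rb2, -0.027 to 0.055 for Ifngr2, -0.040 to 0.13 for Jak3 and -0.97 to 0.052 for Il7r. The difference between clones ran from -0.16 to 0.40 for Osm and -0.048 to 0.020 for Jak1. LAP* against dKO ran from -0.091 to 0.14 for Il3ra, -0.18 to 0.062 for Il6ra, -0.25 to 0.52 for Il6st and -0.34 to 0.088 for Il10ra, and LAP* against WT from -0.021 to 0.11 for Csf2rb and -0.20 to 0.057 for Il6ra. Il10ra in C2 and Il1rl1 rest on few reads, so depth limits them.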
